A study of Homo sapiens with 17 samples.

Results

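The 10 genes of MHC class I antigen presentation followed here were B2M, TAP1, TAP2, TAPBP, HLA-E, HLA-F, PSMB8, PSMB9, NLRC5 and ERAP1. A gene was measured through probe sets that the platform annotation gives exactly 1 symbol, and where several remained the brightest was used. This left 9 of the 10 genes, among 17958 genes in all. HLA-E is annotated only together with HLA-B and is not analysed here. The samples were 17 arrays, 1 per RNA sample, of A549 and H2122, human lung adenocarcinoma cell lines that both lack functional LKB1, the kinase encoded by STK11. Each line was stably transduced with a pBABE retrovirus and kept in 1 µg/mL puromycin for 2 weeks. The retrovirus carried wild-type LKB1 (LKB1), the kinase-dead mutant LKB1 K78I (K78I), or no insert (pBABE). K78I and pBABE are the controls. All arms share the retrovirus, the selection and medium with 5% serum, and they contain no untransduced cells. Each of the 6 groups held 3 arrays, except H2122 pBABE with 2. The sources used here do not say whether a transduced line was a pool or a clone, or whether replicates came from separate cultures. The p-values therefore rest on the spread among these arrays, which may be technical.

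MHC class I molecules show peptides made inside the cell to CD8 T cells. Proteasomes cut proteins, the TAP transporter carries the peptides into the endoplasmic reticulum, aminopeptidases trim them, and tapasin helps load them onto a heavy chain paired with beta-2-microglobulin. Many of these genes respond to interferon, through interferon-stimulated response elements and through NLRC5, which acts with RFX, CREB-family and NF-Y factors on class I promoters. In tumours, low expression of this machinery is a known route of escape from T cells.

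STK11 stood at 10.52 on the A549 array labelled pBABE replicate 3 and at 7.14 on the one labelled K78I replicate 2, which goes against both labels. The other A549 arrays had 9.42 to 10.23 with LKB1, 10.54 and 10.42 with K78I, and 6.88 and 7.38 with pBABE, as log2 levels. In H2122 the level was 11.20 to 11.35 with LKB1, 11.26 to 11.31 with K78I, and 6.33 and 6.22 with pBABE. For H2122 pBABE replicate 2, LKB1 replicate 3 and K78I replicate 3 title and source name disagree on the construct, and the titles were followed. STK11 on these arrays was 6.22, 11.26 and 11.26, levels like those of the other arrays with the same title. It cannot tell LKB1 from K78I. The mean of 9 measured cell cycle markers was 8.08 on H2122 pBABE replicate 2, beside 9.39 to 9.81 on the other H2122 arrays. It was 9.01 on A549 K78I replicate 2 and 9.45 on A549 pBABE replicate 1, beside 9.73 to 10.11 on the other A549 arrays. Of 10 epithelial markers, the mean lay between 7.95 and 9.40 in every group, while 9 measured leukocyte markers averaged 4.46 to 4.75, and PTPRC, the pan-leukocyte antigen CD45, lay at 2.83 to 3.28. No leukocyte marker was called for LKB1 against controls in H2122 or A549 with limma. Of all genes 4.99% were called higher and 2.29% lower in H2122, and 5.49% and 2.95% in A549. The 0 of 9 is near those shares. At an unadjusted p under 0.05 the counts were 1 (lower) in H2122 and 0 in A549, where 19.3% and 21.8% of all genes passed.

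Promoters of B2M, TAP1, TAPBP, HLA-F, PSMB9 and TAP2 are shown first. They come from RefSeq, build GRCh38.p14, and run from 250 bases before to 50 after the start site, 5′ to 3′. Capitals mark GAAA, any 2 bases, GAAA, or the reverse complement (TTTC, any 2 bases, TTTC), the core letters of the interferon-stimulated response element. PSMB9 is shown as the neighbour of TAP1, read in the opposite direction, and TAP2 as a member that did not pass the test in either line.

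B2M promoter, chr15:44711267-44711566, plus strand: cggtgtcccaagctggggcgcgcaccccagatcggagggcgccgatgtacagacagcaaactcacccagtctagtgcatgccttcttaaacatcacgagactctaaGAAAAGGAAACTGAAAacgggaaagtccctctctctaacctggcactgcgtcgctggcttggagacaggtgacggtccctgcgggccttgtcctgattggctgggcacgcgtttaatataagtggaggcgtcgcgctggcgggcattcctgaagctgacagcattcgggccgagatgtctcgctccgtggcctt

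TAP1 promoter, chr6:32853655-32853954, minus strand: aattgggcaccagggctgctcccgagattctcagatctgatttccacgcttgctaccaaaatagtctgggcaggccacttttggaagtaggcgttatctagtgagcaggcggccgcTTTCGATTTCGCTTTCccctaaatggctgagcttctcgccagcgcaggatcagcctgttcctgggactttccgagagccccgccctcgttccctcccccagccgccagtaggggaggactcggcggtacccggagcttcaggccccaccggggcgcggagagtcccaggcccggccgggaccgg

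TAPBP promoter, chr6:33314029-33314328, minus strand: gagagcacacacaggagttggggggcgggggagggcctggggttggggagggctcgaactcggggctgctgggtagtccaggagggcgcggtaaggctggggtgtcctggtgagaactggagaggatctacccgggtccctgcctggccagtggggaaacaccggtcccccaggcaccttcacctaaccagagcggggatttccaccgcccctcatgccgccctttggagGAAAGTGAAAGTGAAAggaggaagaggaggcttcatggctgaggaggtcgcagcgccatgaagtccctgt

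HLA-F promoter, chr6:29723184-29723483, plus strand: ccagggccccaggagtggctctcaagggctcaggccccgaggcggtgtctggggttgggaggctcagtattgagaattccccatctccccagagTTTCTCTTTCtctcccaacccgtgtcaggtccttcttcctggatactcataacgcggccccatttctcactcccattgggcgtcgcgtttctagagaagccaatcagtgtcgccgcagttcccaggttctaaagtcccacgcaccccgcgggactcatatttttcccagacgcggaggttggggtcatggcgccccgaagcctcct

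PSMB9 promoter, chr6:32853942-32854241, plus strand: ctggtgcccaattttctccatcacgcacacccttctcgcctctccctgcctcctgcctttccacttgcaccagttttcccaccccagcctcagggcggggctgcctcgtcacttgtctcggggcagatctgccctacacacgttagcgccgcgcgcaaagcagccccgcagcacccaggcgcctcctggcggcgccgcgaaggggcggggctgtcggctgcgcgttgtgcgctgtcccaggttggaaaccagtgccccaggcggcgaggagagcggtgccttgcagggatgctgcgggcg

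TAP2 promoter, chr6:32838690-32838989, minus strand: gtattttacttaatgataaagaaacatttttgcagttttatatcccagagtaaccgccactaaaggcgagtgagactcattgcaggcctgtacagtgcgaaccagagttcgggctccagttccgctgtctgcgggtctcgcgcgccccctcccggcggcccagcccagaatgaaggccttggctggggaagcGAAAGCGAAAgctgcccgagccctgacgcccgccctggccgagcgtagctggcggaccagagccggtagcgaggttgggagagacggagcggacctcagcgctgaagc

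The promoter table held 8 of the 9 measured members, in 11 windows, since TAP1, PSMB8 and ERAP1 have a pair of start sites each. The interferon-stimulated response element core was found in 7 of the 8 genes (7 of 11 windows), all but PSMB9, and in 3.57% of all 35116 windows of that length. Its first base lay at −144 and −138 from the start site in B2M, −134 and −128 in TAP1, −20 and −14 in TAPBP, −156 in HLA-F and −58 in TAP2. The paired matches in B2M, TAP1 and TAPBP overlap each other. In ERAP1 it lay at 3 and in PSMB8 at −4, in 1 window of each. The start sites of TAP1 and PSMB9 are 488 bases apart on opposite strands, and their windows share only 13 bases. The core matches of TAP1 lie between these start sites, outside the PSMB9 window. CCAAT (reverse ATTGG), the core bound by NF-Y, was in 5 of the 11 windows, against 34.6% of all windows. Its matches in TAP1 and PSMB9 are the same bases, in the stretch their windows share. TGACG (reverse CGTCA), the half-site of CREB-family factors, was in 4 of the 11 windows, against 24.6%. A kappaB-type sequence, GGG, any 3 bases, TTCC, or its reverse complement, was in 3 of the 11 windows (B2M, TAP1 and TAPBP), against 6.52%. Both strands were searched. PSMB9, whose window lacks the interferon-stimulated response element core, was called in H2122 (below), and TAP2 and PSMB8, which carry it, were not. ERAP1, also called there, is not printed. Whether the core bears on the H2122 result was not tested. The motifs were chosen with results of these data known, no test was made, and a match of letters is not a bound site.

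**Figure D1:**
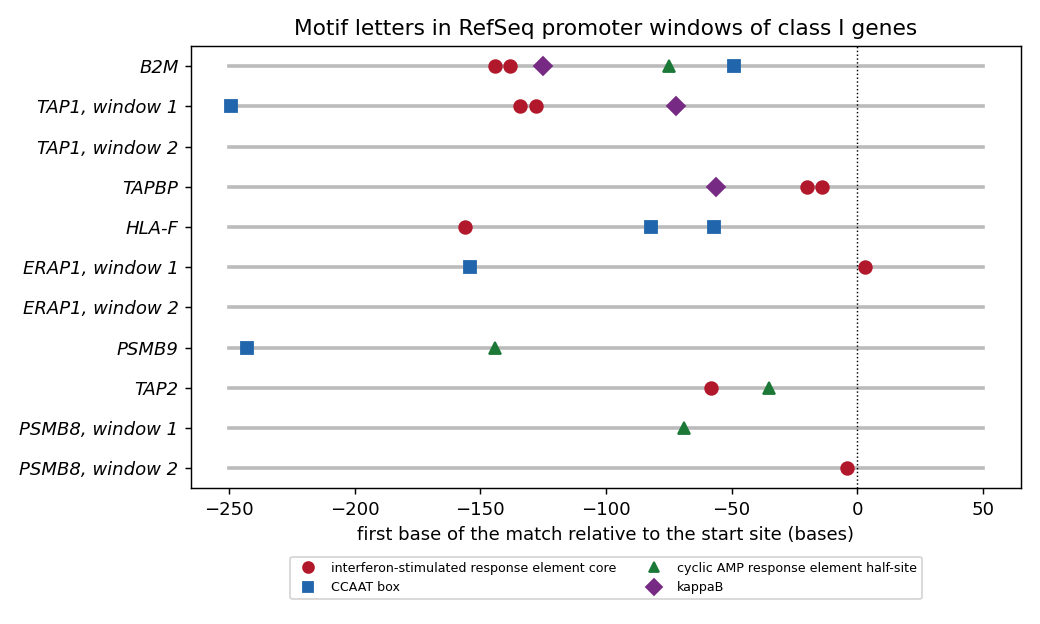
Positions of motif matches in the RefSeq promoter windows of 8 class I genes. The x axis gives the first base of each match in bases from the start site (dotted line), each grey line is 1 window, and marker shapes stand for the 4 motifs. The interferon-stimulated response element core appears in 7 of the 8 genes and is missing from the PSMB9 window.

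With LKB1, 6 of the 9 members rose in H2122 and 0 fell: B2M, TAP1, TAPBP, HLA-F, PSMB9 and ERAP1 (limma, adjusted p under 0.05 over all genes). Of all genes 4.99% were called higher and 2.29% lower in this comparison. Without the 3 H2122 arrays whose labels disagree the count was 3 (B2M 0.96, TAP1 0.72 and TAPBP 0.84 log2 units, with limma adjusted p of 0.0288, 0.0103 and 0.00987), and HLA-F missed the threshold (0.81, 0.0526). Over all genes the calls there were 342 higher and 80 lower, against 896 and 412 with every array. With those arrays grouped by source name it was 0, with 0.51 for B2M, 0.42 for TAP1 and 0.51 for TAPBP (limma adjusted p = 0.378, 0.34 and 0.267). That grouping called 0 genes higher and 1 lower of all 17958, so its 0 says nothing particular about the members. The 6 rises under the titles were 1.45-fold to 1.92-fold over the mean of the 2 control groups. The median difference of the 9 members was 0.72 log2 units, against −0.04 over all genes. On each of these 6 genes every LKB1 array lay above every control array, which was so for 8.54% of all genes. In A549 0 of the 9 members passed in either direction, where 5.49% of all genes were called higher and 2.95% lower. At an unadjusted p under 0.05 there were 2 higher and 1 lower in A549, where 21.8% of all genes passed in either direction. The median of the members was 0.17 log2 units in A549, against −0.02 over all genes.

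**Figure D2:**
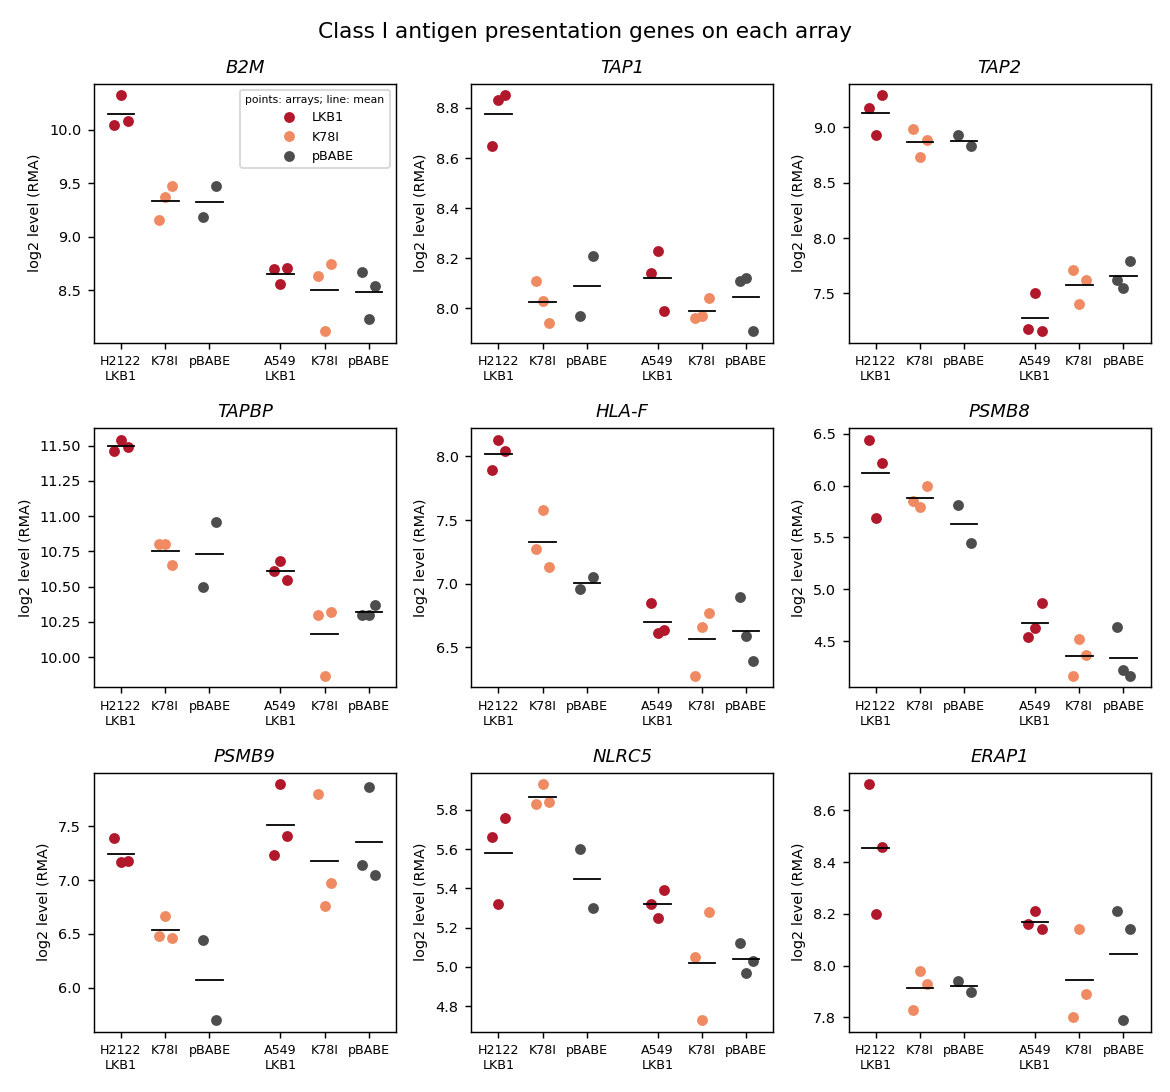
Log2 levels (y axis) of the 9 measured members on each array, by line and construct (x axis). Points are arrays and horizontal lines are group means. In H2122 the LKB1 points of B2M, TAP1, TAPBP, HLA-F, PSMB9 and ERAP1 lie above all control points, and in A549 this holds for TAPBP.

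B2M encodes beta-2-microglobulin, the invariant light chain of every class I molecule. In H2122 its log2 level was 10.04, 10.32 and 10.08 with LKB1, 9.16, 9.37 and 9.47 with K78I, and 9.18 and 9.47 with pBABE. The LKB1 arrays stood clear of the controls, with a gap of 0.57 between the lowest LKB1 and the highest control array. The difference was 0.82 ± 0.15 log2 units (SE), or 1.76-fold, with a limma adjusted p of 0.00302. In A549 the levels were 8.70, 8.56 and 8.71 with LKB1, 8.63, 8.12 and 8.75 with K78I, and 8.67, 8.23 and 8.54 with pBABE. Those groups overlapped, with a difference of 0.16 ± 0.14 (SE, limma adjusted p = 0.576).

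HLA-F is a non-classical class I heavy chain. In H2122 it stood at 7.89, 8.13 and 8.04 with LKB1, 7.27, 7.58 and 7.13 with K78I, and 6.96 and 7.05 with pBABE. Every LKB1 array was the higher, and K78I arrays lay between LKB1 and pBABE. The difference from the controls was 0.85 ± 0.14 (SE, limma adjusted p = 0.00175). In A549 the LKB1 arrays had 6.85, 6.61 and 6.64, the K78I arrays 6.28, 6.66 and 6.77, and the pBABE arrays 6.90, 6.59 and 6.39, with full overlap. There the difference was 0.10 ± 0.14 (SE, limma adjusted p = 0.75). HLA-F has 3 probe sets, and in H2122 they gave 0.83 to 0.99, each called. Class I heavy chain genes are alike over long stretches, and whether their probe sets keep them apart was not tested.

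TAP1 and TAP2 are the subunits of the peptide transporter, and they did not move alike. TAP1 stood at 8.65, 8.83 and 8.85 with LKB1 in H2122, 8.11, 8.03 and 7.94 with K78I, and 7.97 and 8.21 with pBABE. The groups did not overlap, and the difference of 0.72 ± 0.10 (SE) had the lowest p of the members in this line (limma adjusted p = 0.000307). In A549 TAP1 stood at 8.14, 8.23 and 7.99 with LKB1, 7.96, 7.97 and 8.04 with K78I, and 8.11, 8.12 and 7.91 with pBABE, again with overlap. The difference there was 0.10 ± 0.09 (SE, limma adjusted p = 0.627).

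TAP2 stood at 9.18, 8.93 and 9.29 with LKB1 in H2122, 8.99, 8.73 and 8.89 with K78I, and 8.93 and 8.83 with pBABE. LKB1 replicate 2 lay within the controls, and the difference of 0.25 ± 0.12 did not pass (SE, limma adjusted p = 0.265). In A549 the sign was the other way. The LKB1 arrays had 7.18, 7.50 and 7.16, the K78I arrays 7.71, 7.40 and 7.62, and the pBABE arrays 7.62, 7.55 and 7.79. LKB1 replicate 2 overlapped the controls, and the difference of −0.34 ± 0.12 did not pass (SE, limma adjusted p = 0.0918). With array weights, which give less weight to arrays far from their group, it did (−0.40, limma adjusted p = 0.00688).

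TAPBP encodes tapasin, which bridges TAP and the empty class I molecule. In H2122 it stood at 11.46, 11.54 and 11.49 with LKB1, 10.80, 10.80 and 10.65 with K78I, and 10.50 and 10.96 with pBABE. The LKB1 arrays lay within 0.08 of each other and 0.50 above the highest control. The difference was 0.75 ± 0.12 (SE, limma adjusted p = 0.0012). TAPBP was also the 1 member whose A549 groups were separate. There it stood at 10.61, 10.68 and 10.55 with LKB1, 10.30, 9.87 and 10.32 with K78I, and 10.30, 10.30 and 10.37 with pBABE. The A549 difference was 0.37 ± 0.12 (SE, limma adjusted p = 0.0637), where 8.46% of all genes had every LKB1 array above every control array. It passed without A549 K78I replicate 1 (adjusted p = 0.0454) or replicate 3 (0.0439), and without H2122 pBABE replicate 1 or 2 (0.033 each), which enters through the shared spread. The A549 array with the lowest TAPBP, K78I replicate 2, is 1 of those whose STK11 went against the label. Without both such arrays the difference was 0.31 and did not pass (limma adjusted p = 0.0943).

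PSMB8 and PSMB9 are the interferon-inducible catalytic subunits of the immunoproteasome, and they take the places of PSMB5 and PSMB6. PSMB9 stood at 7.39, 7.17 and 7.18 with LKB1 in H2122, 6.48, 6.67 and 6.46 with K78I, and 6.44 and 5.70 with pBABE. The LKB1 arrays lay above all controls, and the lowest value was on pBABE replicate 2, the array with the lowest cell cycle markers. The difference of 0.94 ± 0.25 had the highest SE of the members (limma adjusted p = 0.0324). It did not pass without that array (0.75, adjusted p = 0.106), without any 1 LKB1 array (adjusted p = 0.085 to 0.14), without K78I replicate 1 or 3 (0.0581 and 0.0689) or against K78I alone (0.205). The part of the cell cycle difference in this result was not tested. In A549 PSMB9 was erratic, at 7.23, 7.89 and 7.41 with LKB1, 7.80, 6.76 and 6.97 with K78I, and 7.14, 7.87 and 7.05 with pBABE. Replicates of a group lay up to 1.04 apart there, and the difference was 0.24 ± 0.24 (SE, limma adjusted p = 0.638).

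The signal of PSMB8 in A549 was below the array medians of 5.62 to 5.73, and no detection calls were used. PSMB8 stood at 6.44, 5.69 and 6.22 with LKB1 in H2122, 5.848, 5.792 and 5.997 with K78I, and 5.81 and 5.45 with pBABE. LKB1 replicate 2 was below 4 of the 5 controls, and the difference of 0.36 ± 0.17 did not pass (SE, limma adjusted p = 0.253). In A549 the levels were 4.54, 4.63 and 4.87 with LKB1, 4.17, 4.52 and 4.37 with K78I, and 4.64, 4.22 and 4.17 with pBABE. The difference of 0.33 ± 0.16 was close to that in H2122 and did not pass (SE, limma adjusted p = 0.251). With array weights it did (0.46, limma adjusted p = 0.0153).

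ERAP1 trims peptides in the endoplasmic reticulum. In H2122 it stood at 8.70, 8.20 and 8.46 with LKB1, 7.83, 7.98 and 7.93 with K78I, and 7.94 and 7.90 with pBABE. The 5 controls lay within 0.15 of each other while the LKB1 arrays were spread over 0.50, all of them higher. The difference was 0.54 ± 0.13 (SE, limma adjusted p = 0.0157). It did not pass without LKB1 replicate 1 (0.42, adjusted p = 0.112) or LKB1 replicate 3 (adjusted p = 0.0656). In A549 ERAP1 stood at 8.16, 8.21 and 8.14 with LKB1, 7.80, 8.14 and 7.89 with K78I, and 8.21, 7.79 and 8.14 with pBABE. Those groups overlapped, with a difference of 0.17 ± 0.12 (SE, limma adjusted p = 0.461).

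NLRC5, the transactivator of class I genes, was not called in either line. Its signal lay below the array medians of 5.62 to 5.73 in A549 and on either side of them in H2122, and no detection calls were used. In H2122 NLRC5 stood at 5.66, 5.32 and 5.76 with LKB1, 5.83, 5.93 and 5.84 with K78I, and 5.60 and 5.30 with pBABE. The K78I arrays were the highest and the LKB1 arrays overlapped those with pBABE. The difference of LKB1 from the controls was −0.08 ± 0.13 (SE, limma adjusted p = 0.842), with a 95% interval of −0.36 to 0.20. In A549 NLRC5 stood at 5.32, 5.25 and 5.39 with LKB1, 5.05, 4.73 and 5.28 with K78I, and 5.12, 4.97 and 5.03 with pBABE. That difference was 0.29 ± 0.13 (SE, limma adjusted p = 0.185). 

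**Figure D3:**
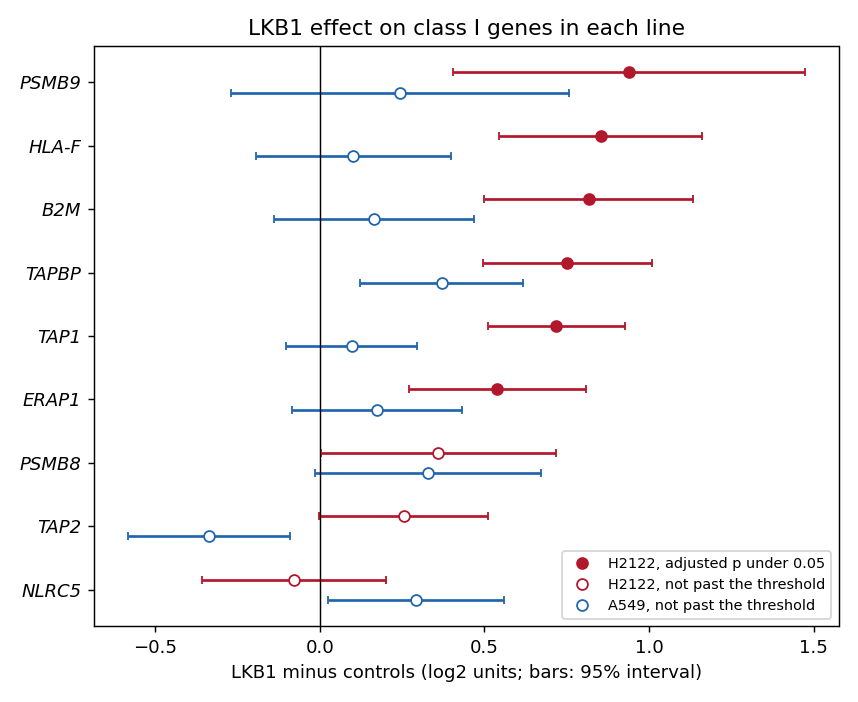
LKB1 minus controls in log2 units (x axis) for each of the 9 members (y axis), with 95% intervals from limma, H2122 above A549. Filled points passed an adjusted p of 0.05. The 6 filled points are all from H2122, between 0.54 and 0.94, and the A549 points lie between −0.34 and 0.37.

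B2M, TAP1, TAP2, TAPBP and ERAP1 gave like H2122 differences against either control, while those of HLA-F, PSMB8, PSMB9 and NLRC5 moved more. Against K78I, which carries the transcript without kinase activity, the differences were 0.82 for B2M, 0.75 for TAP1, 0.74 for TAPBP, 0.69 for HLA-F and 0.54 for ERAP1, all called by limma, where 2.98% of all genes were called higher and 0.908% lower. Against pBABE they were 0.82, 0.69, 0.76, 1.01 and 0.54 for those genes, and ERAP1 did not pass (limma adjusted p = 0.0595), where 4.17% of all genes were called higher and 1.6% lower. PSMB9 gave 0.71 against K78I, not called, and 1.17 against pBABE, called. PSMB8 gave 0.24 ± 0.19 against K78I and 0.48 ± 0.21 against pBABE, and NLRC5 −0.29 ± 0.15 and 0.13 ± 0.16 (SE), none of them called, with the sign of NLRC5 turning. The comparisons share the LKB1 arrays. In A549 0 members passed against K78I, where 3.56% of all genes were called higher and 1.69% lower, or against pBABE, where the shares were 3.78% and 1.72%. At an unadjusted p under 0.05 there was 1 higher and 1 lower against each, where 19.7% of all genes passed against K78I and 17.8% against pBABE. Between K78I and pBABE 0 of the 9 members passed in H2122 or A549 with limma, and 0% of all genes did. STK11 itself was thus not called, although in H2122 it stood at 11.26 to 11.31 with K78I and 6.33 and 6.22 with pBABE. The 0 therefore does not show that the controls are alike. At an unadjusted p under 0.05 the counts were 1 in H2122 (NLRC5, higher by 0.42 ± 0.16 with K78I, SE) and 0 in A549, where 7.02% and 2.63% of all genes passed.

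Whether the LKB1 effect differs between the lines was tested directly, as the effect in H2122 minus that in A549. TAP1 passed, with a difference of 0.62 ± 0.13 log2 units (SE, limma adjusted p = 0.0183), while 1.98% of all genes were called with a higher and 1.63% with a lower effect in H2122. For the other 8 members the difference between lines did not pass, so their calls in H2122 are not shown to be particular to that line. The values were 0.75 ± 0.20 for HLA-F (SE, limma adjusted p = 0.0531), 0.59 ± 0.17 for TAP2 (0.0714) and 0.65 ± 0.21 for B2M (0.115). HLA-F passed on another of its 3 probe sets (0.89, limma adjusted p = 0.0185) and in 9 of 32 alternatives. PSMB9 had 0.70 ± 0.35 (SE, limma adjusted p = 0.373), TAPBP 0.38 ± 0.17 (0.289) and ERAP1 0.37 ± 0.18 (0.349). NLRC5 had −0.37 ± 0.18 (SE, limma adjusted p = 0.362), and PSMB8 0.03 ± 0.23 (0.978), with a 95% interval of −0.46 to 0.53. At an unadjusted p under 0.05 there were 5 members, all with the higher effect in H2122, where 15% of all genes passed in either direction. The TAP1 call was lost, with differences of like size, without A549 LKB1 replicate 3 (0.56, adjusted p = 0.0725), H2122 LKB1 replicate 2 (0.60, 0.0525) or H2122 LKB1 replicate 3 (0.59, 0.0652), against K78I alone (0.63, 0.0526) and against pBABE alone (0.62, 0.0643). Without the 3 H2122 arrays whose labels disagree it was 0.63 and did not pass (0.092), and 0 members did. The count of members was 3 without the A549 arrays whose STK11 went against the label (B2M, TAP1 and HLA-F), and 3 without the 3 controls with low cell cycle markers (B2M, TAP1 and TAPBP). Leaving out A549 K78I replicate 2 also gave 3 (B2M, TAP1 and TAP2). Leaving out A549 K78I replicate 1, pBABE replicate 3, LKB1 replicate 2 or H2122 K78I replicate 2 gave 2. Across 32 alternatives the adjusted p of TAP1 ran from 0.000955 to 0.588, the last when arrays were grouped by source name.

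The lines already differed without active LKB1. Over control arrays 6 of the 9 members were lower in A549 than in H2122 and 1 was higher, where 20.1% of all genes were called lower and 20.3% higher. PSMB8 differed by −1.40 ± 0.14 log2 units (SE, limma adjusted p = 8.28e-07) and TAP2 by −1.26 ± 0.10 (7.04e-08). B2M differed by −0.84 ± 0.12, NLRC5 by −0.63 ± 0.11, HLA-F by −0.57 ± 0.12 and TAPBP by −0.50 ± 0.10 (SE, limma adjusted p of at most 0.00127). PSMB9 ran the other way, higher by 0.96 ± 0.21 in A549 (SE, limma adjusted p = 0.00154). For these 7 genes no A549 control array overlapped an H2122 control array, which was so for 13.2% of all genes in the lower and 13.3% in the higher direction. TAP1 (−0.04 ± 0.08) and ERAP1 (0.08 ± 0.11) stood at like levels, with SE as given. Neither passed in limma. PSMB8 and PSMB9, neighbours of TAP2 and TAP1 in the MHC on chromosome 6, differed between the lines in opposite directions. Whether the probes match the alleles of both lines equally was not tested.

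The rest of the class I pathway was read from a list of 23 genes, 20 of them measured. In H2122 5 rose with LKB1 and 0 fell, beside 4.99% and 2.29% of all genes, with a median of 0.20 log2 units. The peptidase ERAP2, which works with ERAP1, rose by 1.11 ± 0.17 (SE, limma adjusted p = 0.000731). The heavy chain genes HLA-G (0.91 ± 0.14, SE), HLA-B (0.88 ± 0.18) and HLA-C (0.45 ± 0.13) rose, with limma adjusted p of 0.000774, 0.00709 and 0.0438. Whether the probe sets keep these heavy chains apart was not tested. PDIA3, the disulfide isomerase of the loading complex, rose by 0.30 ± 0.08 (SE, limma adjusted p = 0.0379). HLA-B lay between 11.65 and 11.69 on the LKB1 arrays, 10.65 and 11.21 on the K78I arrays, and 10.23 and 10.93 on the pBABE arrays. In A549, where 5.49% of all genes rose and 2.95% fell, 2 of the 20 rose and 0 fell, ERAP2 by 0.86 ± 0.16 (SE, limma adjusted p = 0.00323) and the proteasome activator subunit PSME1 by 0.48 ± 0.11 (0.0109), with a median of 0.01. HLA-B (0.06 ± 0.17) and HLA-C (0.03 ± 0.12) did not pass in A549 (SE). In the test of the difference between lines 2 of the 20 passed, both with the higher effect in H2122. They were HLA-G (0.90 ± 0.19) and PDIA3 (0.44 ± 0.11), with limma adjusted p of 0.0169 and 0.0476 (SE). Of all genes 1.98% were called with a higher and 1.63% with a lower effect in H2122.

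Of 19 measured constitutive proteasome genes and assembly factors, 0 were called in H2122 with limma. Of all genes 4.99% were called higher and 2.29% lower, and the 0 of 19 is near those shares. At an unadjusted p under 0.05, 2 were lower and 0 higher, where 19.3% of all genes passed. Their median was −0.14 log2 units, against −0.04 over all genes. A positive sign was found for 1 of the 19, and for 7603 of all 17958 genes. The catalytic subunits PSMB5, PSMB6 and PSMB7, which the immunoproteasome replaces, differed by −0.28 ± 0.20, −0.27 ± 0.26 and −0.14 ± 0.11 (SE). The assembly factor PSMG4 had the most negative value, −0.39 ± 0.15 (SE, limma adjusted p = 0.146). PSMB10, the immunoproteasome counterpart of PSMB7, differed by −0.17 ± 0.19 (SE, limma adjusted p = 0.722). Among the immunoproteasome subunits PSMB9 was thus the 1 that was called. In A549 the assembly factor PSMG3 fell by 0.59 ± 0.12 (SE, limma adjusted p = 0.00734), with a list median of −0.03. It was the 1 call among the 19 there, beside 5.49% of all genes higher and 2.95% lower.

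Of 17 measured transcription factors of class I genes, 0 passed in H2122 with limma. Of all genes 4.99% were called higher and 2.29% lower, and the 0 of 17 is near those shares. At an unadjusted p under 0.05, 3 were higher and 1 lower, where 19.3% of all genes passed. IRF1, the interferon regulatory factor that binds class I promoters, differed by 0.47 ± 0.15 (SE, limma adjusted p = 0.0697) in H2122 and by 0.42 ± 0.14 (0.0808) in A549. RFX5, the RFX subunit on class I promoters, differed by 0.43 ± 0.16 (SE, limma adjusted p = 0.147) in H2122 and 0.19 ± 0.16 (0.553) in A549. IRF8 rose in A549 by 1.05 ± 0.27 (SE, limma adjusted p = 0.0273), the 1 call among the 17 there, beside 5.49% of all genes higher. Its A549 levels were 4.71 to 5.56 with LKB1, 3.82 to 4.48 with K78I and 3.67 to 4.96 with pBABE. They overlapped and lay below the array medians of 5.62 to 5.73. The interferon receptor and JAK-STAT list had 3 of 16 higher and 0 lower in H2122, with a median of 0.14, beside 4.99% and 2.29% of all genes. They were the interferon IFNE (1.48 ± 0.29, SE), the type I receptor chain IFNAR2 (0.83 ± 0.15) and the receptor kinase JAK1 (0.56 ± 0.16), with limma adjusted p of 0.00444, 0.00266 and 0.0422. In A549 JAK1 (0.83 ± 0.15, SE) and the feedback inhibitor SOCS3 (0.50 ± 0.14) rose and the phosphatase PTPN2 fell by 0.57 ± 0.10 (limma adjusted p = 0.00261, 0.0387 and 0.00185), where 5.49% of all genes rose and 2.95% fell.

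Class II genes, which present peptides to CD4 T cells, had 2 of 13 higher in H2122 and 1 of 13 in A549, with 0 lower in each, beside 4.99% and 5.49% of all genes called higher. The cathepsin CTSS, which degrades the class II invariant chain, rose by 1.70 ± 0.18 in H2122 (SE, limma adjusted p = 3.8e-05). HLA-DPA1 rose by 0.72 ± 0.17 in H2122 (SE, limma adjusted p = 0.0171) and by 0.93 ± 0.16 in A549 (0.00225). On the controls it lay at 4.06 to 4.51 in H2122 and 4.16 to 4.39 in A549. CIITA, the class II counterpart of NLRC5, differed by 0.15 ± 0.11 in H2122 and by −0.07 ± 0.11 in A549 (SE) and was not called in either.

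**Figure D4:**
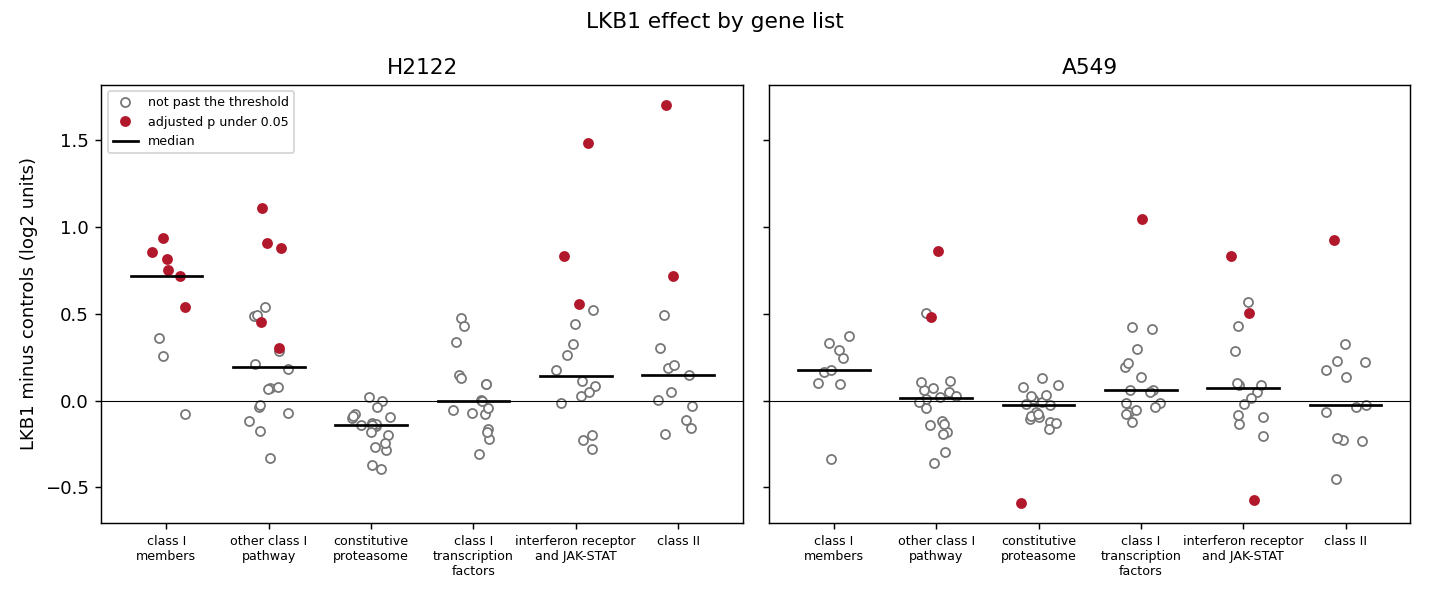
LKB1 minus controls in log2 units (y axis) for each gene of 6 lists (x axis) in H2122 (left) and A549 (right). Points are genes, filled where the limma adjusted p was under 0.05, and bars are list medians. The class I members in H2122 have the highest median, 0.72, beside 0.20 for the other class I pathway genes and −0.14 for the constitutive proteasome.

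Over the 8 H2122 arrays, which share the LKB1 effect, the correlation of log2 levels was 0.98 for TAP1 with TAPBP, 0.94 for B2M with each of them, and 0.89 for B2M with HLA-F. For NLRC5 it was −0.39 with B2M, −0.38 with TAP1 and −0.35 with TAPBP. Over the 9 A549 arrays the sign was the other way, 0.86 for NLRC5 with B2M and with TAPBP and 0.34 with TAP1. The A549 levels of NLRC5 lay below the array medians. In H2122 PSMB8, beside PSMB9 at 0.75, stood at 0.38 with B2M and 0.39 with TAP1. In A549 these values were −0.13, 0.26 and 0.32. These are descriptions over few arrays, and RNA level alone was measured, not class I protein on the cell surface.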

How the data were processed

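Per the submitters' processing notes, RMA in Affymetrix Expression Console 1.1 gave the values the authors deposited, which are log2 levels for each probe set, from 130 ng of total RNA per array. RMA makes the arrays' distributions alike, so a shift of most genes cannot be seen, and few arrays per group limit the precision. No source used here names the genome build. The table held 33297 probe sets, of which 19181 had 1 gene symbol, 2055 several and 12061 were not listed in the platform annotation and are unnamed here. Of the 19181 gene identifiers 19143 matched a RefSeq table, and 0 symbols changed. The probe set with the highest mean was kept for each of 17958 genes. Groups came from sample titles. limma 3.58.1 in R 4.3.3 (lmFit, eBayes) was fitted over 6 groups, which share 1 spread per gene with 11 residual and 3.8 prior degrees of freedom. Controls had equal weight, p-values were Benjamini-Hochberg adjusted over all genes, and the threshold was 0.05. The fit was tested on simulated data. Between replicates of a group the differences of all genes had an SD from 0.226 to 0.607, and each array was counted as 1 sample. Deviations of same-numbered arrays correlated at −0.644 to 0.352 in A549 and 0.064 to 0.42 in H2122, not above 0.1 for every pair, so the numbers were not taken as pairs. The members, lists and motifs were chosen with earlier results of these data known. Named genes were STK11, the members, up to 4 called genes per list and line with the lowest adjusted p, the largest difference where a list had none, a fixed set (PSMB5, PSMB6, PSMB7, PSMB10, HLA-B, HLA-C, IRF1, RFX5, CIITA and CD274), and the 5 genes most and the 5 least like the members. Some genes are not reported here, and PTPRC was added as a marker. Alternatives covered array choice, grouping, control, filter, scaling, probe set and fit. Figures were drawn with matplotlib 3.10.9.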

Additional observations from a re-analysis of the deposited data

Results flagged for a closer look

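The LKB1 effect on TAP1 differed between the lines by 0.62 log2 units, H2122 minus A549, in the test of the difference itself (limma adjusted p = 0.0183). The effect was 0.72 in H2122 and 0.10 in A549. All 3 LKB1 arrays lay above all controls in H2122, while the A549 groups overlapped. TAP1 has 3 probe sets with the same values on every array, so they give no second measurement.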

How the results depend on the processing

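The count of members called in H2122 ran from 4 to 6 when single arrays were left out, without LKB1 replicate 1 or 3 at the low end. It was 3 without the 3 H2122 arrays whose labels disagree and 0 when these were grouped by source name, where the members' median was 0.25. The replicate block gave 4, without PSMB9 (0.96, limma adjusted p = 0.063) and ERAP1 (0.54, 0.0512), although the numbers were not taken as pairs. In A549 the count ran from 0 to 1 when single arrays were left out, and was 1 without the low cell cycle controls, 1 with a trended robust prior and 3 with array weights. The A549 median ran from 0.12 to 0.21 with single arrays left out. It was 0.085 without the 2 arrays with STK11 against the label, 0.11 with median centring and 0.23 against K78I alone. Members with a different effect between lines numbered 2 with the replicate block, without the dimmest 30% of genes, with median centring, with the mean of probe sets and with pooled controls. They numbered 3 with quantile normalization, without the STK11 arrays or without the low cell cycle controls, and 5 with array weights. They numbered 0 by source name, without the arrays whose labels disagree, and against K78I or pBABE alone, and ran from 0 to 3 with single arrays left out. Against pBABE alone 4 members differed between the lines' controls. Signs turned for values near 0. NLRC5 in H2122 was 0.034 with array weights and 0.13 against pBABE alone, and ran from −0.17 to 0.052 with single arrays left out. PSMB8 in H2122 was −0.068 by source name. The difference between lines of PSMB8 was −0.40 by source name, −0.080 without the arrays whose labels disagree, −0.17 without the low cell cycle controls, −0.0086 with quantile normalization, −0.045 with array weights and −0.089 against K78I alone. It ran from −0.13 to 0.24 with single arrays left out, and that of PSMB9 was −0.10 by source name. The causes were not tested. The replicate block changed no other count by over 1.5 times, and without detection calls, whether PSMB8 and NLRC5 stood above background was not tested.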

Other observations

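The genes whose pattern was most like the members were sought by the correlation with the members' mean, after each gene was centred on its line's mean and scaled, over 17 arrays. The 5 highest outside the list were ATP10D (r = 0.94), ATL1 (0.933), RABGAP1L (0.933), DLG1 (0.933) and COL27A1 (0.926). They were called higher in H2122, by 1.06, 0.87, 0.64, 0.45 and 1.77 log2 units, and not called in A549. The 5 lowest were SNHG29 (r = −0.902), ID2 (−0.898), MYC (−0.894), RPL4 (−0.892) and INSYN2A (−0.89). In H2122 ID2 fell by 1.58, INSYN2A by 1.44, MYC by 0.63 and SNHG29 by 0.36, while RPL4 (−0.14) was not called (limma). The arrays that make these correlations share the LKB1 effect, so they describe and do not test.

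CD274, the checkpoint ligand PD-L1, differed between lines in the same direction as TAP1. It rose by 1.62 ± 0.27 in H2122 (SE, limma adjusted p = 0.00143) and differed by −0.36 ± 0.26 in A549 (0.481), and the difference between lines was 1.98 ± 0.37 (SE, limma adjusted p = 0.00802).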
